A study of Mus musculus with 8 samples.

Results

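The genes followed here were the transcription factors YAP, TAZ, SRF and MRTF-A and the transcripts best known to respond to them, in C2C12 cells after silencing of the long non-coding RNA Pvt1. Members were the probes whose gene name on the array was Yap1, Wwtr1, Ctgf, Cyr61, Ankrd1, Srf, Mkl1, Acta2, Tagln or Cnn1, all probes of each, with control spots left out. This gave 16 probes of 10 genes, among 56605 probes and 37074 gene names on the array, and 13 of the 16 had enough positive and significant values to be tested. C2C12 is a line of mouse myoblasts, the cells that fuse into muscle fibres. RNA came from proliferating cells that the labels place at passage 10 and day 0, and was hybridised to 8 one-colour arrays. By the silencing protocol in the methods, cells were lysed when the transfection medium was taken off, 48 h after it was added. In the Pvt1-silenced group (4 arrays) the myoblasts had been transfected by means of Lipofectamine 2000 with the antisense LNA GapmeRs Pvt1_1 and Pvt1_3, which lead RNase H to cut the RNA they bind. In the negative control group (4 arrays) the cells had received the same reagent with Negative Control GapmeRs, so both groups carried a GapmeR and no untransfected cells were included. The labels number the samples of each group as biological replicates 1 to 4. All of them come from 1 cell line, and transfection took place in culture. The oligonucleotides that set the groups apart are shown as designed, from the 5′ to the 3′ end, without capitals since no part is marked.
Pvt1_1: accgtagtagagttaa
Pvt1_3: agtcaacgcttcacat

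YAP, encoded by Yap1, and TAZ, encoded by Wwtr1, are coactivators that the Hippo kinases Lats1 and Lats2 hold in the cytoplasm. In the nucleus they bind DNA through TEAD factors and switch on genes such as Ctgf, Cyr61 and Ankrd1. SRF binds a DNA element called the CArG box, and its coactivator MRTF-A, encoded by Mkl1, enters the nucleus when free actin monomers become scarce, so that SRF targets such as actins, transgelin and calponin follow the state of the cytoskeleton. In myoblasts YAP is known to favour proliferation, while SRF serves both proliferation and the contractile genes of muscle. The activity of YAP, TAZ and MRTF-A is set mainly by their place in the cell and by phosphorylation, and SRF acts with its coactivator. An array measures neither place nor phosphorylation.

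The target was checked first: the brightest Pvt1 probe read 9.65 to 10.31 log2 units on the control arrays and 6.39 to 7.85 on the silenced arrays, which is a change of -2.86 (limma adjusted p 0.000682). Spots with a positive and significant signal made up 58.8% to 62.5% of each control array and 51.6% to 61.0% of each silenced array, with silenced replicate 4 at the low end. Markers of myoblasts were well above background on all 8 arrays for 4 of 5 genes, and the fifth, Myf5, was on none. Their summed linear signal was 55294 to 56972 in controls and 20878 to 34881 in silenced cells. Of these 5 markers Myod1 (-1.95), Des (-1.35) and Cdh15 (-0.86) were lower with a limma adjusted p of 0.0141 or less, Pax7 changed by 0.02 (limma adjusted p 0.972), and Des is also in the list of SRF targets below. Of 8 liver genes, 1 was well above background on all control arrays and 5 on all silenced arrays, with sums of 874 to 1717 and 4449 to 5520, while Apoa1 and Apoc3 were on no array. For 5 markers of smooth muscle the sums were 5731 to 8847 and 7267 to 9034. Of these 5, Smtn and Synpo2 were well above background on all 8 arrays, Myh11 on 2 silenced arrays and no control array, and Myocd and Lmod1 on no array. All sums take the brightest probe of each gene. Dimmer probes of Smtn (-1.88, limma adjusted p 0.001) and Synpo2 (-1.23, limma adjusted p 0.0104) were lower. Another dimmer Synpo2 probe changed by -0.38. For 5 genes of differentiating muscle the sums were 1054 to 1372 and 852 to 897. By the brightest probe, Mymk changed by -2.04 (limma adjusted p 0.000953). Myog (0.13), Myh3 (-0.58) and Tnnt3 (-0.26) did not pass the test, and Ckm had no tested probe. Control replicate 3 read 4.96 for Myog, against 8.17 to 8.41 on the other controls. The part of other cell types, of liver transcripts and of the dim silenced replicate 4 in the results below was not tested.

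To show what lies before the start of these genes, the 250 bases upstream of each start site were read from RefSeq (build GRCm38.p6), which held a window for 8 of the 10 members, not for Ctgf and Tagln. Each window was searched on both strands for CATTCC, the core of the TEAD site, which appears as GGAATG when it lies on the other strand, and for the CArG box. The first stood in 12.6% and the second in 1.47% of 32851 such windows. Ankrd1 (minus strand, chr19:36119845-36120094) held the TEAD core at 2 places, 210 and 123 bases before the start. Cyr61 (minus strand, chr3:145649986-145650235) held it 103 bases before the start, and Acta2 (minus strand, chr19:34255374-34255623) 146 bases before. The windows of Yap1 and Wwtr1 held it as well. Srf (minus strand, chr17:46556163-46556412) held 2 CArG boxes, 82 and 62 bases before its own start. No match was found in the windows of Mkl1 and Cnn1. These are matches of letters and not sites of binding. A stretch that differs from the CArG box by a single letter, such as ccctatatgg in the Acta2 window, was not counted as a match. The windows of Ankrd1, Cyr61, Acta2 and Srf are printed because their transcripts fell and the windows hold a match, with the matches in capitals.
Ankrd1: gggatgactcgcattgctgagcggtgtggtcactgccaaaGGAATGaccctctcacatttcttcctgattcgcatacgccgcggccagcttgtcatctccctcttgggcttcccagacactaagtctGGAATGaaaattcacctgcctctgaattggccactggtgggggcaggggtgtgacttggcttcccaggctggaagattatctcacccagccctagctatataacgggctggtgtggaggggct
Cyr61: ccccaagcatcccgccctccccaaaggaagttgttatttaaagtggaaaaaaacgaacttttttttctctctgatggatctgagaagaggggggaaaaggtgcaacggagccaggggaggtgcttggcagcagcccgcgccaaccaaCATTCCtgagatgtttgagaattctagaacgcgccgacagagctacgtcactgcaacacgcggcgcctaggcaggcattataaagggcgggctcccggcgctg
Acta2: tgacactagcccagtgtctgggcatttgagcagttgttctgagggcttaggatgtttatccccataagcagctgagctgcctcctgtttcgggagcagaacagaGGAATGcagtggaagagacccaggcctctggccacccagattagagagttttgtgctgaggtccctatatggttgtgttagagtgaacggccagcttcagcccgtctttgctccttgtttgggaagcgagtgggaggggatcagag
Srf: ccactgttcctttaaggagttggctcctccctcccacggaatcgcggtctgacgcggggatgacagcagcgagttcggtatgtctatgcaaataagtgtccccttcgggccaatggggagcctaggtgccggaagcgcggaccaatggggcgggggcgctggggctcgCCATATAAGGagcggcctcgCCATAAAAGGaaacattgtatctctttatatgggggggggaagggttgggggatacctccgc

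The comparison of silenced with control cells addressed which of these factors and targets differed at the RNA level. Of the targets 5 of 6 fell, and of the factors 1 of 4. Ctgf, Cyr61, Ankrd1, Acta2 and Tagln were lower in silenced cells, Srf was lower by a smaller margin, and the brightest probes of Yap1, Wwtr1 and Mkl1 had silenced means above the control means without passing the test. Dimmer probes of Yap1 and Mkl1, described below, read less on average in silenced cells, also without a call. Of the 13 tested member probes, 7 were lower and 0 higher at a limma adjusted p under 0.05, with p-values adjusted over all probes tested. Such probes are referred to as called. After cyclic loess, another way to bring the arrays to one scale, 9 member probes were lower and 1 higher. Among all 28649 tested probes 18.4% were lower and 4.79% higher, and after cyclic loess 18.4% and 18.9%. By its brightest probe, 6 of the 10 genes were lower, against 14.0% of 19360 genes. The median change was -1.0 over the members and -0.09 over all genes, in log2 units of silenced minus control. All probes together had a median change of -0.19, which cyclic loess brought to 0.02, and changes relative to that median are given where the difference matters. Bulk RNA does not tell fewer cells of a type from less RNA per cell.

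**Figure D1:**
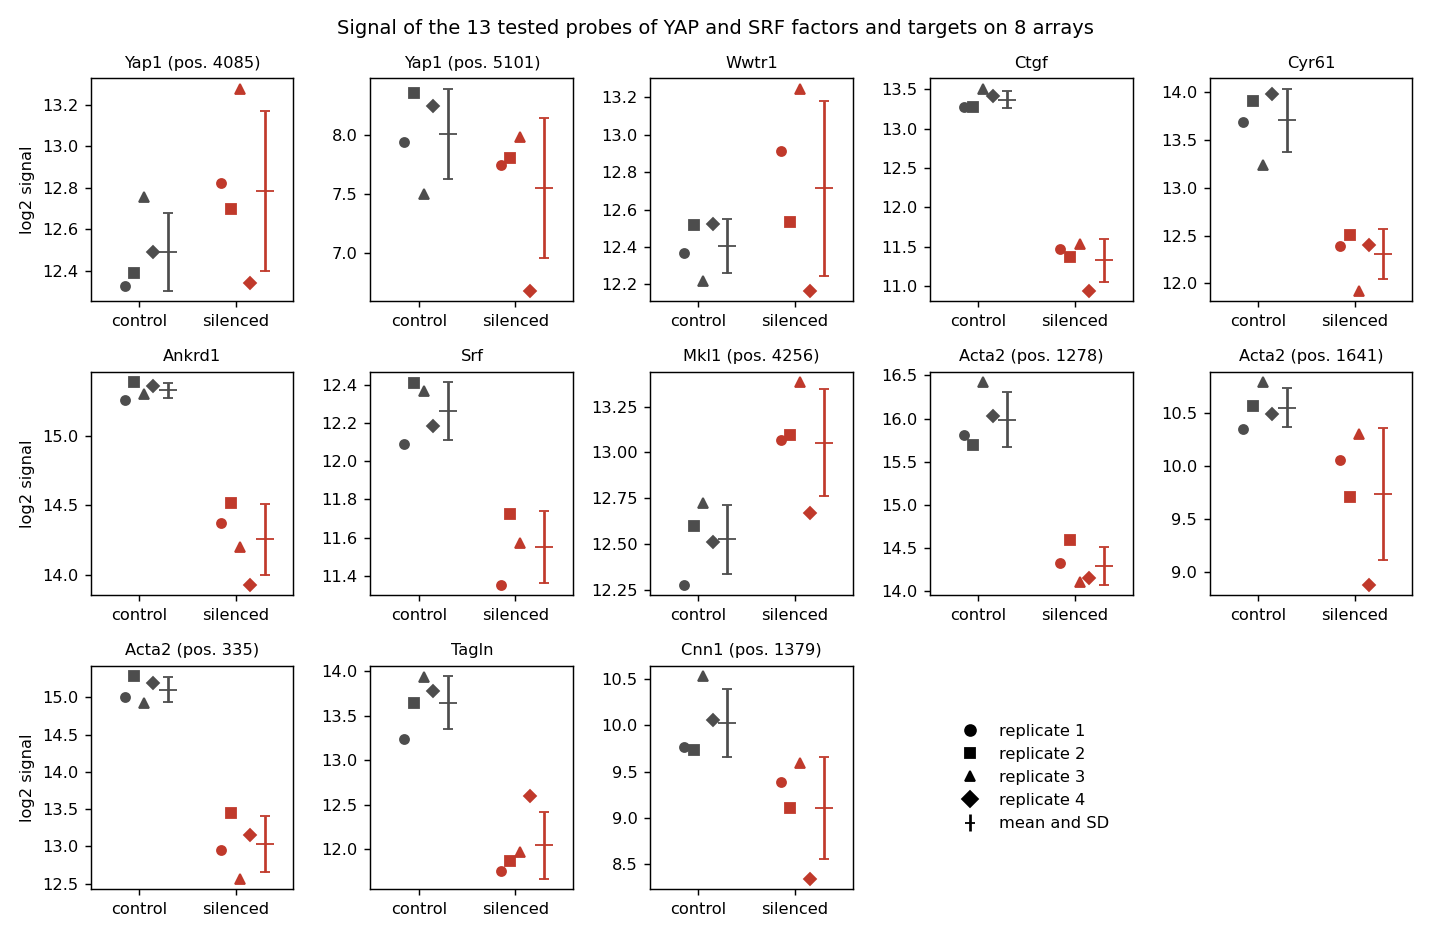
Log2 signal (vertical axes, each with its own range) of the 13 tested member probes on the 4 control and 4 silenced arrays. Symbols mark replicates 1 to 4, bars the mean and SD of a group, and "pos." the first base of the probe in its transcript. Ctgf, Cyr61, Ankrd1, Srf, Acta2, Tagln and Cnn1 have no silenced array at the level of a control array, while Yap1, Wwtr1 and Mkl1 overlap.

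The factors were taken first. Yap1 was read by a probe at base 4085 of its transcript (chromosome 9, 7932025 to 7932084, build mm9 as for all probes). Its log2 signal was 12.33, 12.39, 12.75 and 12.49 on control arrays 1 to 4 and 12.82, 12.70, 13.28 and 12.34 on silenced arrays 1 to 4. Silenced replicates 1 and 3 were above every control and replicate 4 was near the lowest one, so the groups overlapped. The change was 0.30 (SE 0.24, 95% interval -0.23 to 0.83, limma adjusted p 0.408), so a rise of 0.83 lay within the interval. A dimmer Yap1 probe on another transcript model (chromosome 9, 7997029 to 7997088) read 7.50 to 8.36 in controls and 6.68 to 7.99 in silenced cells, with a change of -0.46 (limma adjusted p 0.343). The sign of Yap1 therefore depended on the probe, and neither probe passed the test. Compared within each array, the difference between both probes shifted by -0.75 in silenced cells (exact two-sided permutation p 0.0857, 0.114 after adjustment over 4 such pairs of probes), with overlap between the groups.

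Wwtr1, which encodes TAZ, had 1 probe (chromosome 3, 57262551 to 57262610). Its signal was 12.37, 12.52, 12.22 and 12.52 in controls and 12.91, 12.53, 13.25 and 12.16 in silenced cells. The silenced arrays stood in the same order as for the brighter Yap1 probe, with replicate 3 highest and replicate 4 lowest, and overlapped with the controls. The change was 0.31 (SE 0.25, 95% interval -0.26 to 0.88, limma adjusted p 0.421).

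Srf was the factor that fell. Its probe (chromosome 17, where the file gives coordinates for 8 of its bases, 46683788 to 46683795) read 12.09, 12.41, 12.37 and 12.19 in controls and 11.35, 11.73 and 11.57 in silenced replicates 1 to 3. Silenced replicate 4 was left out because its spot carried an outlier flag. All 3 silenced values lay below every control value. The change was -0.71 (SE 0.21, 95% interval -1.20 to -0.23, limma adjusted p 0.0415), or 61.0% of the control level. This call was lost in 10 of 18 alternatives, among them the fit with slide row as a block (-0.75, limma adjusted p 0.118) and the omission of any single control array or of silenced replicate 1, 2 or 3, while the change stayed between -0.80 and -0.52.

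Mkl1, which encodes MRTF-A, was read by 2 probes that did not move alike. The bright one at base 4256 (chromosome 15, 80842711 to 80842753 for 43 of its bases) read 12.28, 12.60, 12.72 and 12.51 in controls and 13.07, 13.09, 13.38 and 12.67 in silenced cells. Silenced replicates 1 to 3 were above every control and replicate 4 lay among them. The change was 0.53 (SE 0.22, 95% interval 0.05 to 1.01, limma adjusted p 0.107), and 0.72 relative to the median of all probes. It was called higher in 6 of 19 alternatives, among them cyclic loess (0.71, limma adjusted p 0.0049) and the fit without silenced replicate 4 (0.65, limma adjusted p 0.0279). The other probe, at base 2302 (chromosome 15, 80846691 to 80846750), gave 6.73, 7.56, 4.19 and 7.47 in controls and no positive signal on any silenced array. Well above background on 3 of the 4 controls, it had too few values for a test, so the fold is a bound, at least 1.25-fold higher in controls. That bound is the mean of the controls against the lowest signal of probes well above background on each silenced array. It rested on single arrays, being 2.12-fold without control replicate 3 and giving no fold without control replicate 2 or 4. With no mask on dim spots the probe could be tested and was not called (limma adjusted p 0.0582).

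Among the member genes that are targets of YAP and TAZ, Ctgf fell most. Ctgf encodes connective tissue growth factor, a secreted matrix-associated protein that is widely used as a readout of YAP activity. Its probe (chromosome 10, 24318281 to 24318340) read 13.28, 13.28, 13.51 and 13.41 in controls and 11.48, 11.37, 11.54 and 10.94 in silenced cells. The silenced arrays lay well below the narrow range of the controls, with replicate 4 lowest. The change was -2.04 (SE 0.20, 95% interval -2.49 to -1.58, limma adjusted p 0.000475), which left 24.4% of the control level. It stood at place 537 of the 28649 probes in order of change, counted from the most negative. An exact two-sided permutation test of these values gave p = 0.0286, the lower limit for 4 against 4 arrays, and gave the same for each tested probe of the other 5 member targets.

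Cyr61, another secreted matrix-associated protein and an integrin ligand, had 1 probe (chromosome 3, 145310187 to 145310246). It read 13.69, 13.91, 13.24 and 13.98 in controls and 12.39, 12.51, 11.92 and 12.40 in silenced cells. The lowest control, replicate 3, was still above the highest silenced array. The change was -1.40 (SE 0.23, 95% interval -1.93 to -0.87, limma adjusted p 0.0034), with 37.9% of the control level left.

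Ankrd1 encodes an ankyrin repeat protein found in the nucleus and at the sarcomere, which muscle raises on stretch. Its probe (chromosome 19, 36186809 to 36186868) gave 15.26, 15.38, 15.30 and 15.36 in controls and 14.37, 14.52, 14.20 and 13.93 in silenced cells. The controls lay close together, and every silenced array was below them. The change was -1.07 (SE 0.20, 95% interval -1.51 to -0.63, limma adjusted p 0.0049), so that 47.6% of the control level remained.

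Among the targets of SRF, Acta2, the smooth muscle alpha actin, was one of the brightest members and carried 4 probes. The probe at base 1278 of the transcript (chromosome 19, 34316060 to 34316119) read 15.81, 15.69, 16.42 and 16.02 in controls and 14.32, 14.58, 14.10 and 14.14 in silenced cells. No silenced array came within 1 log2 unit of a control. The change was -1.70 (SE 0.23, 95% interval -2.20 to -1.19, limma adjusted p 0.0013), or 30.8% of the control level. At base 335 a probe whose coordinates span 3255 bases of the genome, and so cross between exons (chromosome 19, 34322995 to 34326249), read 15.01, 15.28, 14.92 and 15.19 in controls and 12.96, 13.45, 12.57 and 13.15 in silenced cells. This was the larger fall, with a change of -2.07 (SE 0.23, limma adjusted p 0.000675). At base 1641 (chromosome 19, 34315697 to 34315756) the values were 10.35, 10.56, 10.79 and 10.49 in controls and 10.05, 9.71, 10.30 and 8.87 in silenced cells. The groups did not overlap there either, but the change was -0.82 (SE 0.30, limma adjusted p 0.082) and was not called. A probe for another transcript model (chromosome 19, 34327946 to 34328005) was not well above background on any array.

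**Figure D2:**
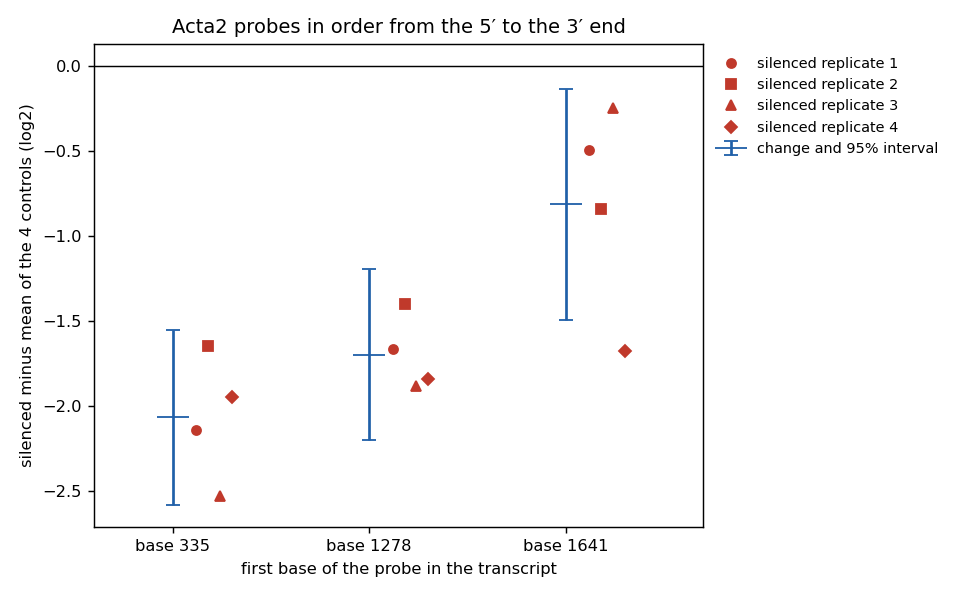
Change of the 3 tested Acta2 probes (vertical axis, silenced minus control in log2 units), placed in order of their first base in the transcript. Blue bars give the change and its 95% interval, and red symbols each silenced array minus the mean of the controls. The change runs from -2.07 at base 335 to -0.82 at base 1641, where silenced replicate 4 is the lowest.

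Along the Acta2 transcript the computed changes thus became smaller from the 5′ to the 3′ probe. Within each array, the probe at base 335 fell by 1.25 log2 units more than that at base 1641 (exact two-sided permutation p 0.0571, 0.114 after adjustment over the 4 pairs), and the groups overlapped. Over 3475 transcripts with tested probes at least 300 bases apart, the 5′ probe had the lower change in 79.6%, with a median difference of -0.66, so the order seen in Acta2 was that of most transcripts on these arrays. The part of this order in the changes of members read by a single probe, and in the differences between probes of other genes below, was not tested. The probe at base 335 is shown because it gave the largest fall of the gene, together with the Cnn1 probe described below, the other member probe whose coordinates cross between exons, both with no part marked. Actin genes resemble one another closely, and signal from other actins on the Acta2 probe cannot be told apart.
Acta2: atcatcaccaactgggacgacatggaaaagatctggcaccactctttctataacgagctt
Cnn1: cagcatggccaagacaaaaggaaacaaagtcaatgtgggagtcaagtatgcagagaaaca

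Tagln encodes transgelin, an actin-binding protein of smooth muscle. Its probe (chromosome 9, 45738097 to 45738156) read 13.24, 13.64, 13.93 and 13.78 in controls and 11.75, 11.87, 11.97 and 12.60 in silenced cells. Unlike most members, silenced replicate 4 was here the highest of its group, yet still below every control. The change was -1.60 (SE 0.25, 95% interval -2.17 to -1.04, limma adjusted p 0.0025), which left 32.9% of the control level.

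Cnn1, calponin 1, binds actin and restrains actomyosin. The probe at base 1379 (chromosome 9, 21913058 to 21913117) read 9.77, 9.73, 10.54 and 10.06 in controls and 9.39, 9.10, 9.59 and 8.34 in silenced cells. Every silenced array lay below every control, by a narrow margin for replicate 3. The change of -0.92 (SE 0.31, 95% interval -1.61 to -0.23, limma adjusted p 0.0576) was not called, and was called in 5 of 19 alternatives, among them cyclic loess (-0.68, limma adjusted p 0.0193). At base 486 (chromosome 9, 21909945 to 21910166, a span of 222 bases) the second probe gave 5.08, 6.04, 5.34 and 5.64 in controls and no positive signal in silenced cells, but none of the 8 arrays had it well above background, so no fold is given.

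**Figure D3:**
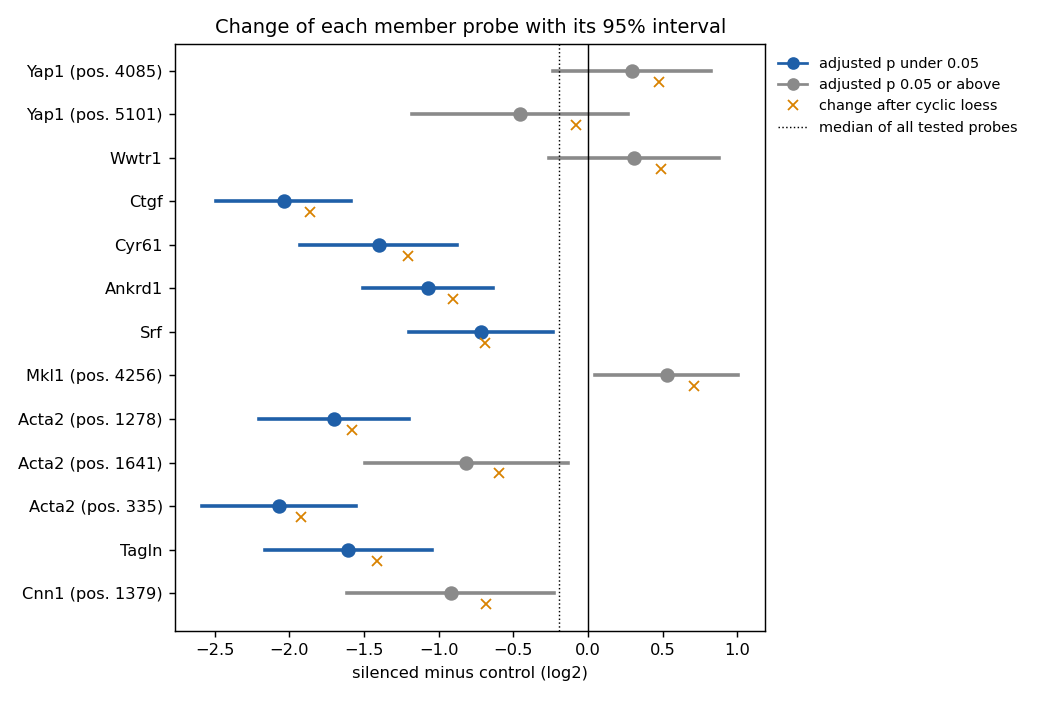
Change of each tested member probe (horizontal axis, silenced minus control in log2 units) with its 95% interval. Blue marks a limma adjusted p under 0.05, grey the others, orange crosses the change after cyclic loess, and the dotted line the median of all tested probes (-0.19). Ctgf, Cyr61, Ankrd1, Tagln and the Acta2 probes at bases 335 and 1278 keep to the left of -0.6 over their whole interval.

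Set side by side, 5 of the 6 target genes fell and 1 of the 4 factor genes did, by the brightest probe of each. The computed changes of the targets ran from -2.04 to -0.92 with a median of -1.5, and those of the factors from -0.71 to 0.53 with a median of 0.30. For 9 of the 13 tested member probes every silenced array lay below every control array, against 22.6% of all tested probes, and 8 of the 9 were probes of targets. No member probe had every silenced array above every control, a pattern found in 5.61% of all tested probes. Among all probes with a mean log2 signal of at least 12, the brightness of most members, 14.9% were called lower and 3.72% higher. Over the 12 member probes with all 8 values, silenced replicate 4 was the lowest silenced array for 8 and silenced replicate 3 the highest for 7. Control replicate 3 was the highest control for 7 and the lowest for 4.

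Results were read again without the arrays in doubt and with the place on the slide. Without silenced replicate 4 the changes were -1.90 for Ctgf, -1.42 for Cyr61, -0.99 for Ankrd1, -1.78 for Tagln and -1.70 for the brightest Acta2 probe. Without control replicate 3 they were -1.99, -1.56, -1.08, -1.51 and -1.55 in the same order, and all 10 values were called by limma. Within the upper row of the slide (3 control arrays, 1 silenced) the differences of means were -1.88, -1.23, -0.94, -1.86 and -1.65, and within the lower row (1 control, 3 silenced) -2.12, -1.70, -1.14, -1.64 and -1.75. With the row as a block the fitted changes were -2.0, -1.46, -1.04, -1.75 and -1.70, with limma adjusted p of 0.0358 or less. The 5 genes were thus lower in silenced cells in both rows.

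**Figure D4:**
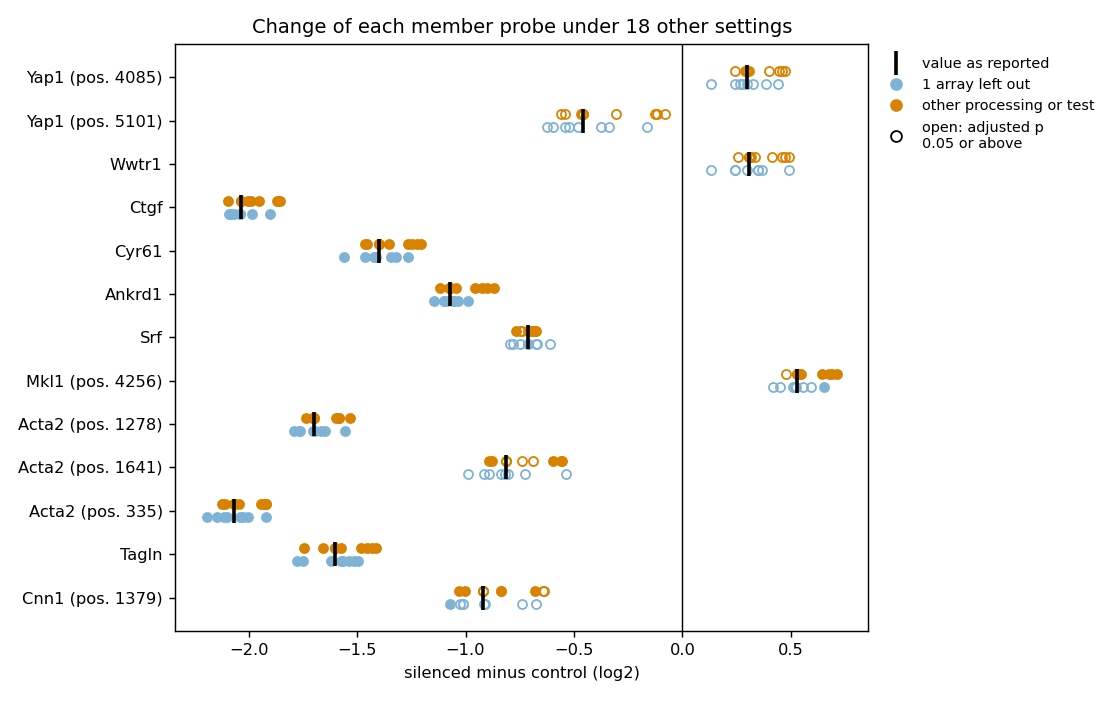
Change of each tested member probe (horizontal axis, silenced minus control in log2 units) as reported (black bar), with 1 array left out (blue) and under other processing or tests (orange). Open circles have an adjusted p of 0.05 or above, and Srf has no value where probes needed a signal on all 8 arrays. Ctgf, Cyr61, Ankrd1, Tagln and the Acta2 probes at bases 335 and 1278 are filled throughout, while Srf, Mkl1, Cnn1 and the Acta2 probe at base 1641 hold both kinds.

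The other genes of both pathways were counted in 3 lists, each gene by its brightest probe, beside the 14.0% of all genes called lower and 5.99% called higher. Of 22 Hippo regulators and TEADs, 4 were lower and 2 higher, with a median change of -0.20. Of 17 further targets of YAP and TAZ, 16 were tested, 2 were lower and 1 higher, with a median of 0.06. Of 31 further partners and targets of SRF, 29 were tested, 9 were lower and 0 higher, with a median of -0.09. The medians of all 3 lists were thus near the -0.09 of all genes, unlike the -1.0 of the 10 members. Over all their tested probes, 11 of 44 were lower and 2 higher in the Hippo list, 4 of 24 and 2 among the YAP and TAZ targets, and 21 of 50 and 2 in the SRF list, beside the 18.4% and 4.79% of all probes.

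Among Hippo regulators, Frmd6, an upstream activator of the kinases, fell by 1.06 (SE 0.19, limma adjusted p 0.0050) and was called in all 18 alternatives. Lats2, the kinase that phosphorylates YAP and is itself a target of YAP, changed by -0.78 (limma adjusted p 0.039), and its relative Lats1 by -0.15 (limma adjusted p 0.689). Dimmer probes changed by -0.23 and -1.64 for Lats2 and by -0.37 for Lats1, none of them called. Ptpn14, a phosphatase that binds YAP, changed by -0.92 (limma adjusted p 0.0336), with 3 dimmer probes that were not called, at -0.71 and 0.66 for 2 of them and well above background on no array for the third. Nf2, the tumour suppressor merlin at the head of the pathway, was higher by 0.75 (limma adjusted p 0.0341), but a dimmer probe fell by 0.90 (limma adjusted p 0.0267). Another dimmer Nf2 probe changed by 0.04. The calls of Lats2, Nf2 and Ptpn14 were each lost in 9 or 10 of 18 alternatives, among them the slide row as a block. Of the 16 genes not called by their brightest probe, 4 had a dimmer probe called lower, well above background on all 8 arrays and without overlap. These were Mob1a, a cofactor of the Lats kinases (-2.28, limma adjusted p 0.0135), Wwc2, a relative of Kibra (-0.90, limma adjusted p 0.0157), and the upstream kinases Taok1 (-0.76, limma adjusted p 0.041) and Map4k4 (-0.72, limma adjusted p 0.0274). The share of all genes with such a probe was not computed, so this count of 4 stands without a background. Among all tested probes 18.4% were called lower.

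The TEAD factors, which carry YAP and TAZ to DNA, differed by gene and by probe. By its brightest probe Tead1 read 12.51, 12.65, 12.23 and 12.62 in controls and 11.82, 11.82, 11.86 and 11.56 in silenced cells, a change of -0.74 (limma adjusted p 0.0212) without overlap. Dimmer Tead1 probes changed by -1.10 (limma adjusted p 0.013) and 0.04 (limma adjusted p 0.952). Tead2 rose by 0.62 (limma adjusted p 0.0472), but its dimmer probe fell by 1.16 (limma adjusted p 0.0181). The call of Tead1 was lost in 6 and that of Tead2 in 9 of 18 alternatives. Tead3 changed by 0.10 and Tead4 by 0.89 (limma adjusted p 0.832 and 0.072), and neither was called. A dimmer Tead4 probe changed the other way, by -0.72 (limma adjusted p 0.0543).

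Of the further YAP and TAZ targets, Amotl2, of the angiomotin family, read 11.64, 11.80, 10.47 and 11.87 in controls and 9.66, 9.85, 9.42 and 8.70 in silenced cells. The lowest control, replicate 3, was above every silenced array. Its change was -2.04 (SE 0.37, limma adjusted p 0.0046), the size of that of Ctgf, and without exception it was called in the 18 alternatives. Asap1, an Arf GTPase-activating protein, fell by 1.19 (limma adjusted p 0.0031) and was also called in all 18, which keep this probe. Its other probes changed by -1.46 and -0.25. The last is the nearest to the 3′ end and was not called (limma adjusted p 0.419). Ccdc80, a matrix protein, was higher by 0.74 (limma adjusted p 0.0438) and lost its call in 9 of 18. Axl, a receptor tyrosine kinase, showed how probes of one gene can part. The brightest, at base 4208, gave a change of 0.20 that missed the threshold. A dimmer one at base 2498, nearer the 5′ end, gave -2.40 (limma adjusted p 0.0075). A dimmer probe of Dock5, a Rac exchange factor, was called higher (limma adjusted p 0.0389), but only 2 silenced arrays and none of the controls had it well above background, so the fold is a bound, at least 1.345-fold.

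Of the further SRF partners and targets, those that fell most by their brightest probe were actins. Actc1, the cardiac alpha actin that myoblasts also make, read 13.22, 13.53, 13.64 and 13.33 in controls and 10.90, 11.35, 10.64 and 10.84 in silenced cells, a change of -2.50 (SE 0.22, limma adjusted p 0.000326). Actg2, the smooth muscle gamma actin, read 13.63 to 13.87 in controls and 11.10 to 11.90 in silenced cells, a change of -2.32 (SE 0.22, limma adjusted p 0.000426). Acta1, the skeletal alpha actin, changed by -1.88 (limma adjusted p 0.0013). In each of these the silenced arrays lay more than 1 log2 unit below the controls. Elk4, a ternary complex factor that binds DNA with SRF, fell by 1.39 (limma adjusted p 0.0053). The remaining 5 called genes were Des, Tpm1, Cnn2, Actg1 and Filip1l, with changes from -1.35 to -0.58, and Filip1l lost its call in 12 of 18 alternatives. Because actin genes are alike in their coding parts, the separate values of Actc1, Actg2, Acta1 and Acta2 are uncertain.

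The other 20 tested SRF partners and targets did not pass the test by their brightest probe, but for 5 of them a dimmer probe was called lower and for 2 a dimmer probe was called higher. Those lower were probes of Tpm2, a tropomyosin (-2.30), of Smtn, the actin-binding smoothelin (-1.88), of Pdlim7 and Pdlim5, which join actin filaments to signalling proteins (-1.60 and -1.53, -1.26 and -1.10), and of the ternary complex factor Elk3 (-0.99). Those higher were probes of Zyx, the focal adhesion protein zyxin (0.89), and of Mkl2. The share of all genes with such probes was not computed, so the counts of 5 and 2 stand without a background. Among all tested probes 18.4% were called lower and 4.79% higher. Actb, the cytoplasmic beta actin, changed by 0.02 (SE 0.17, limma adjusted p 0.956), and by -0.21 after cyclic loess, so its sign depends on the scaling. Its controls read 16.76 to 16.78, above every member probe, and whether its spot was saturated was not tested. Vcl, the focal adhesion protein vinculin, changed by 0.13 (limma adjusted p 0.768) and by -0.50 in a dimmer probe (limma adjusted p 0.254). By its brightest probe Mkl2, which encodes MRTF-B, changed by -0.09 (limma adjusted p 0.817), or 0.04 after cyclic loess. Its other tested probe, at base 522, read 6.43, 6.51, 7.38 and 6.91 in controls and 8.17, 8.08, 9.03 and 7.16 in silenced cells. This probe was higher by 1.31 (limma adjusted p 0.0353), and by 1.70 after cyclic loess, although silenced replicate 4 lay below control replicate 3. Myocd and Lmod1 had no tested probe.

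**Figure D5:**
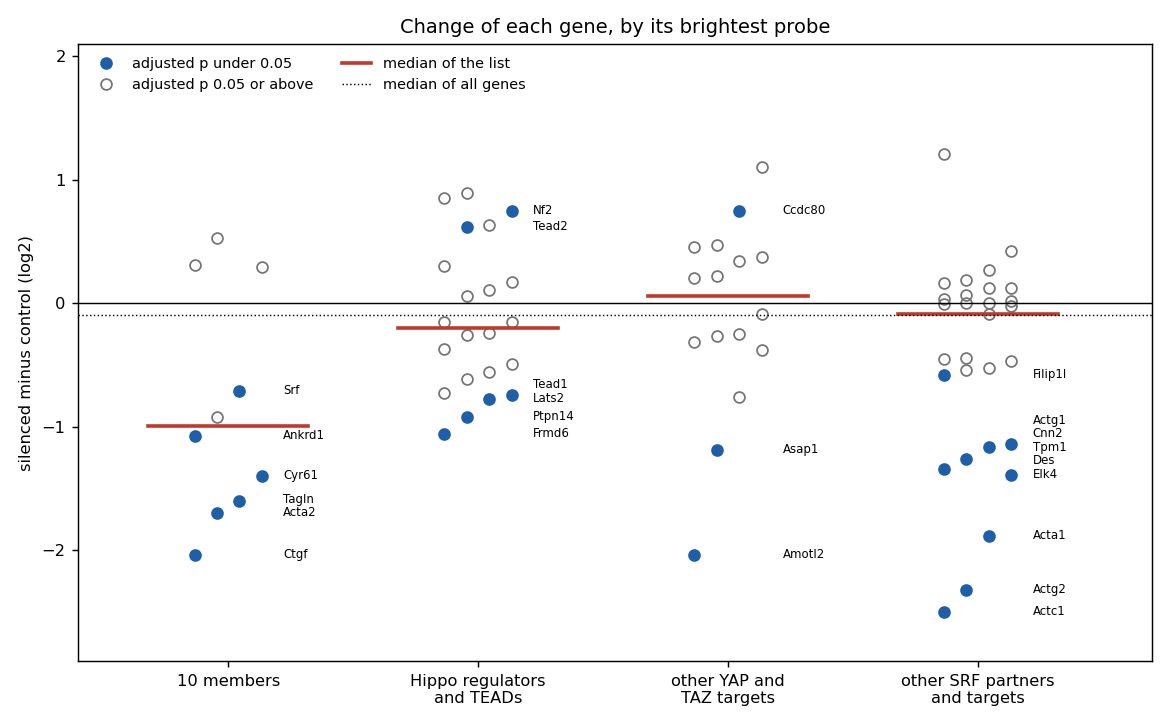
Change of each gene by its brightest probe (vertical axis, silenced minus control in log2 units) for the 10 members and the 3 lists of other pathway genes. Filled circles have a limma adjusted p under 0.05 and carry their name, red bars are the medians of the lists, and the dotted line is the median of all genes (-0.09). The members have a median of -1.0, while the lists lie on both sides of 0 and hold 4, 2 and 9 called genes below it.

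Genes whose values over the 8 arrays ran most like those of Ctgf and Acta2 were found by Pearson correlation over 17124 genes, each by its brightest probe. For Ctgf these were Sbf2 (r = 0.996), Cxcl5 (r = 0.995) and Ldb1 (r = 0.995), with changes of -1.18, -2.98 and -1.96. For Acta2 they were Arhgef1 (r = 0.999), Akt1 (r = 0.998) and Alpk2 (r = 0.997), with changes of -1.02, -0.84 and -2.61. All 8 points share the split into control and silenced arrays, so these correlations describe mainly that split.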

How the data were processed

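Total RNA of 4 Pvt1-silenced and 4 negative control samples of C2C12 cells was read on one-colour Agilent arrays, all on 1 slide and in 1 scan. Spot intensity, background and quality flags (scored 0 or 1) are those the authors deposited as scanner output. Per the file headers, Feature Extraction 12.0.0.7 subtracted background and removed spatial trends, while the submitters' processing notes name version 10.7.3.1. The authors also deposited a table of normalized intensity values, used as an alternative.

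Here, log2 of the processed intensity that the authors deposited was taken, spots not positive and significant were set to missing as in the study's methods, and control spots and outlier-flagged spots were left out. Values were quantile normalized, spots of a probe averaged, and probes kept where each group had 3 or more of its 4 values (28649 of 56605). The groups were compared in R 4.3.3 by the linear models of limma 3.58.1 (lmFit, then eBayes), fitted on group alone with Benjamini-Hochberg adjustment over all probes at 0.05. Single values were tested with exact two-sided permutation tests. For each gene the brightest probe over the 8 arrays was used. On simulated data for this comparison over 28649 probes with 200 changed, 13% of changes of 1 log2 and 54% of changes of 2 log2 were recovered, with 2 unchanged probes called. The simulation changed far fewer probes than were called in the data (18.4% lower and 4.79% higher). Its recovery therefore does not give that of the data. Precision is limited by the small number of arrays.

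The members and the 3 pathway and 4 marker lists were chosen with earlier results of these data known. Named genes were all members, up to 4 called genes per direction of each pathway list, the TEADs, Lats1, Lats2, Mkl2, Vcl and Actb, and the 3 genes most like Ctgf and Acta2. The other SRF genes, Axl, Dock5, the Hippo genes with a called dimmer probe and the markers given by name were named after their values were seen. Marker sums used values without the mask. The alternatives tried were cyclic loess, a 75th percentile shift, normexp (offset 50), the authors' table, a stricter and no mask, complete probes, the replicate number and the slide row as blocks, the methods' t-test (two-sided, unequal variance, as stated for these arrays; the Benjamini-Hochberg adjustment was added here), leaving out each array, other choices of probe per gene, and changes relative to the median. Whether probes lie in coding sequence was not analysed here. Figures were drawn with matplotlib 3.10.9.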

Additional observations from a re-analysis of the deposited data

Results flagged for a closer look

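An array was named here where the gap between it and the next array took up more of the range of its group than Dixon's limit for 4 values, which chance passes in about 1 of 20 groups. Among 159 groups of 4 values, from the member genes and the pathway lists, 14 held such an array. None of the 25 groups of member probes did.

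Control replicate 3 was low in 7 of the 14. It read 6.34 for Wwc1 against 8.97 to 9.28 on the other controls, 10.47 for Amotl2 against 11.64 to 11.87, and 6.48 for Crim1 against 8.71 to 9.11. The same array gave 4.72 for Foxf2 against 7.88 to 8.18 and 7.85 for Gadd45a against 10.04 to 10.34. Among SRF targets it gave 10.31 for Tgfb1i1 against 12.82 to 12.97 and 8.97 for Pdlim5 against 11.22 to 11.58.

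Silenced replicate 4 was low in 6, all relative to the other silenced arrays. It read 9.64 for Lats2 against 10.33 to 10.43, 11.56 for Tead1 against 11.82 to 11.86, and 6.73 for Crim1 against 7.77 to 7.96. For Ccdc80 it read 10.96 against 11.59 to 11.70, for Myl9 12.40 against 13.11 to 13.25, and for Tpm2 12.91 against 13.15 to 13.20. Silenced replicate 1 was high for Pdlim7, at 13.69 against 13.33 to 13.37.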

How the results depend on the processing

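Under all 19 alternatives the changes of Ctgf (-2.09 to -1.84), Cyr61 (-1.56 to -1.20), Ankrd1 (-1.15 to -0.87), Tagln (-1.78 to -1.41) and the Acta2 probes at bases 335 (-2.19 to -1.88) and 1278 (-1.79 to -1.51) kept their sign and their call. The 19 alternatives of a member probe, and the 18 of Srf, include the change relative to the median of all probes. That setting keeps the adjusted p as reported, so no call could change there. Srf lost its call in 10 of 18 alternatives and Acta2 lost it with the probe nearest the 3′ end (-0.82). Yap1 by gene turned to -0.0807 with the mean of its probes. Member probes called lower were 6 to 9. One member probe, that of Mkl1, was called higher with the 75th percentile shift, cyclic loess, normexp, the authors' table and no mask (1 each). All probes called higher were 2165 with the 75th percentile shift and 5416 with cyclic loess, each of 28649 tested. They were 4509 of 45741 with the authors' table and 4990 of 56600 with no mask, settings that tested more probes. Those called lower there were 4461 and 4787, against 5269 of 28649 as reported. With the slide row block 534 probes were called higher and 2572 lower. The methods' t-test after Benjamini-Hochberg adjustment gave 566 higher and 2854 lower. That t-test gave 9 of 13 member probes under 0.05 before adjustment, the form the methods state, and 6 after, against 9021 and 3420 of all probes. Called Hippo genes were 11 with the authors' table, 10 with no mask, 1 with the slide row block, 3 with the t-test and 3 with probes averaged per gene. Called YAP and TAZ targets were 7 with cyclic loess, 6 with the authors' table and 6 with no mask. The cause of these differences was not tested.

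Leaving out 1 array at a time gave 2995 to 5737 probes called lower and 684 to 3572 higher, the last without silenced replicate 4. Member probes called lower were 6 to 7 and higher 0 to 1, and member genes called lower 5 to 6. Called genes were 1 to 8 for the Hippo list, 2 to 5 for the YAP and TAZ targets and 8 to 11 for the SRF list.

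Replicate numbers were not taken as pairs, since the deviations of samples with the same number correlated at -0.02, 0.15, 0.20 and 0.06 for replicates 1 to 4. With the replicate number as a block, 3994 probes were lower and 1023 higher, 6 member probes were lower, and 2 Hippo genes were called. Among members the block ended the call of Srf (limma adjusted p 0.123). Signal over background limited 3 of the 16 member probes, which had too few values to be tested under the mask, and the 9 member probes called lower with no mask or the authors' table include 1 of these, a Cnn1 probe that no array had well above background.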
